A study of Mus musculus with 28 samples.

Results

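Day-1 meiocyte-like cells (1dMeioLC) made from short-telomere (ST) mouse embryonic stem cells were compared with the same cells made from a long-telomere (LT) line, with 2 libraries in each group. The members are the genes with at least 1 TPM (transcripts per 1000000 in all) in 2 or more of these 4 libraries, 17124 of the 53564 gene symbols in the table. Both lines are labelled C57BL6. The LT line was wild type, and the ST line came from generation 4 (G4) of mice lacking Terc, the RNA template of telomerase. Each was taken through 2 days as epiblast-like cells and 4 days of induction with BMP4, SCF, EGF and LIF to primordial germ cell (PGC)-like cells. These were then aggregated for 1 day with gonadal somatic cells from female Actin-GFP embryos at E12.5, in medium with 3 µM retinoic acid (RA), vitamin C and a ROCK inhibitor, and recovered by flow sorting as GFP-negative cells. Values are also given for the Terc-rescued line (RT), for meiocyte-like cells made from E10.5 embryonic PGCs, and for the day-1 embryoid bodies (1dEB) of the LT and ST lines, which are the cells after 1 day of the induction. The design sets telomere length against the expression of PGC, somatic lineage, proliferation and meiosis genes.

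PGCs are the founders of the germ line. In the fetal ovary, BMP signals and RA lead them to switch off pluripotency genes, switch on late germ cell genes such as Dazl and Ddx4, and express Stra8, which drives the meiotic programme. The meiotic chromosome then builds an axis of cohesin and HORMA proteins and a synaptonemal complex that holds homologues together while recombination proceeds, with telomeres tethered to the nuclear envelope. Cells without telomerase RNA lose telomere repeats with each generation, and very short telomeres can act through p53 as DNA damage does.

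The targeted gene matched the labels. Terc (GRCm38 chr3:96414437-96414859) was at 2.35 and 5.39 TPM in the LT libraries and was listed at 0 in both ST libraries. Germ cell markers were present in both groups, with Dazl, Ddx4, Stra8, Rec8, Sycp3, Dppa3, Kit and Tfap2c above 1 TPM in all 4 libraries. Between 16209 and 16480 genes reached 1 TPM in each library. The 2 libraries of a group were closer to each other (Pearson r across members 0.983 in LT and 0.970 in ST) than any pair from different groups (0.910 to 0.928). A ribosomal RNA-like locus, AY036118 with Gm42418, took 1.38% ± 0.009 of all TPM in LT and 7.10% ± 0.044 in ST (SD, n = 2), and its part in the differences was not tested. Nuclear protein-coding genes took 60.6% ± 0.103 in LT and 56.6% ± 0.086 in ST. Nothing in the labels says whether the libraries came from separate cultures, so p-values measure the spread between these libraries, which may be technical. With 2 libraries against 2, an exact permutation test of a single gene cannot go below p = 0.333, so the tests rest on the spread that limma shared across genes and across 16 libraries.

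Of the 17124 members, 7175 (41.9%) differed between ST and LT at a limma adjusted p under 0.05, and only these are said below to have risen or fallen in ST. There were 3618 (21.1%) that rose and 3557 (20.8%) that fell, with a median log2 fold change of 0.00 over all members. A change of at least 2-fold was seen for 977 (5.71%) that rose and 1066 (6.23%) that fell. When TPM were rescaled to nuclear protein-coding genes alone, 4307 (25.2%) rose and 2754 (16.1%) fell, with a median of 0.09. Of the members, 13767 reached 1 TPM in all 4 libraries, 930 did so in both LT libraries and neither ST library, and 809 in both ST libraries and neither LT library. There were 2112 members with exactly 2 libraries at 1 TPM, with a median level of 1.14 TPM, and 2186 genes just outside the rule with 1 such library, with a median level of 0.632 TPM. The LT and ST libraries did not overlap for 12375 members (72.3%), and these include all 7175 that differed, so the lack of overlap stated below for a gene that rose or fell describes its values and adds nothing to its test. Fold changes throughout are ST minus LT on the scale of log2(TPM + 1), which understates the change of genes with low levels. In bulk RNA, fewer cells of a type and less RNA per cell cannot be told apart.

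**Figure D1:**
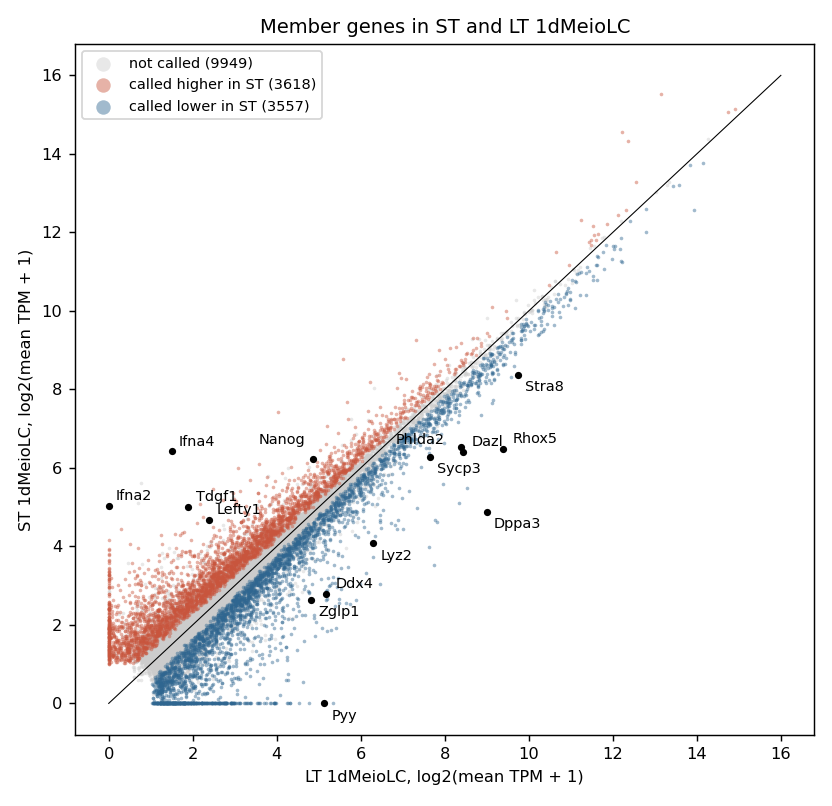
Mean level of each member in LT (x axis) and ST (y axis) 1dMeioLC, as log2(mean TPM + 1) of 2 libraries each, with the diagonal marking equal levels. The 3618 genes called higher and the 3557 called lower are coloured, and Dppa3, Rhox5, Dazl and Stra8 lie far below the diagonal while Ifna4, Tdgf1 and Nanog lie above it.

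Early PGC genes moved in both directions in ST. Of 23 measured, 7 rose and 11 fell, with a median of -0.33. Nanog, Pou5f1 and Prdm14, which pluripotent cells also express, were among those that rose, and Dppa3, Dnd1 and Kit among those that fell. Dppa3 (Stella), a maternal factor that protects DNA methylation and a standard PGC marker, had the largest fall of the list. It lies at chr6:122626410-122630272 and stood at 524 and 495 TPM in LT and 27.6 and 29.6 TPM in ST. The log2 fold change was -4.11, with an SE of 0.07 and a limma adjusted p of 6.6e-10. The groups were far apart, and the RT libraries were between them at 347 and 321 TPM. Dnd1, an RNA-binding protein that PGCs need to survive, was at 10.8 and 12.6 TPM in LT and 4.38 and 3.41 TPM in ST (-1.38, limma adjusted p = 4.7e-05). Kit, the receptor for the SCF in the induction medium, fell from 15.2 and 14.1 TPM to 8.69 and 9.32 TPM (-0.65, limma adjusted p = 0.00062). Sall4, a zinc finger factor of pluripotent and germ cells, fell by 0.96 and the surface protein gene Ifitm1 fell by 0.76 on the log2 scale. The 2 groups did not overlap for any of these genes.

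Of the 3 factors that specify PGCs, 1 passed the test. Prdm1, the repressor that silences the somatic programme, was at 3.91 and 3.45 TPM in LT and 2.92 and 3.10 TPM in ST and did not pass the test (limma adjusted p = 0.16). Tfap2c, its partner, was at 7.44 and 7.26 TPM in LT and 6.81 and 4.63 TPM in ST (-0.33, limma adjusted p = 0.084), and passed at -0.57 only when the first ST library was left out. Prdm14, which sustains both PGCs and naive pluripotency, rose from 5.48 and 4.07 TPM to 8.75 and 9.84 TPM (0.84, limma adjusted p = 0.0007). Nanos3, an RNA-binding protein that keeps PGCs alive, was at 50.9 and 54.3 TPM in LT and 38.1 and 36.8 TPM in ST, just short of the threshold (-0.48, limma adjusted p = 0.0503). It passed on the 4 libraries alone, on the 1dMeioLC groups alone, with a pseudocount of 5 and with the filter at 5 TPM.

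Rhox genes, a cluster of homeobox genes on the X chromosome that are active in germ cells and reproductive tissues, were lower in ST. Of 22 measured, 21 fell and none rose, with a median of -1.75, and Rhox1 was the gene that did not pass. Of the 22, 11 reached 1 TPM in all 4 libraries, and 9 became members through the LT libraries alone, so that their fall was favoured by the rule. The list was gathered by symbol, and tandem copies in this cluster share sequence, so levels of single copies such as the Rhox2 genes are uncertain. Rhox5 (chrX:37804842-37808876), the most abundant, was at 666 and 677 TPM in LT and 99.1 and 79.0 TPM in ST (-2.91, limma adjusted p = 2.3e-08). Rhox6 fell from 131 and 125 TPM to 24.4 and 16.9 TPM and Rhox9 from 63.5 and 60.2 TPM to 7.42 and 7.08 TPM. Rhox10 was at 16.6 and 19.6 TPM in LT and under 1 TPM in both ST libraries. Summed over all 34 Rhox symbols in the table, the cluster gave 1084 and 1104 TPM in LT and 189 and 150 TPM in ST.

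Nearly all late germ cell genes measured were lower in ST. Of 17 measured, 16 fell, none rose, and Bnc1 did not pass, with a median of -1.23. Dazl, an RNA-binding protein that licenses PGCs to enter gametogenesis, was at 349.6 and 339 TPM in LT and 80.6 and 88.0 TPM in ST (-2.02, limma adjusted p = 4.0e-07). Ddx4 (Vasa), the germline RNA helicase, was at 37.4 and 32.9 TPM in LT and 5.98 and 5.84 TPM in ST (-2.38, limma adjusted p = 1.3e-05). For both genes the ST libraries lay far below the LT libraries, and the RT libraries lay between, at 252 and 241 TPM for Dazl and 17.9 and 21.8 TPM for Ddx4. Slc25a31, a germ cell mitochondrial ADP/ATP carrier, fell by 2.61 on the log2 scale. The X-linked germ cell gene Rhox13 fell by 2.34 and the bromodomain gene Brdt fell by 1.65. Hormad1, Sohlh2 and Dppa4 also fell, with log2 fold changes of -0.91, -0.90 and -0.82. The summed level of the list was 1029 and 1003 TPM in LT and 315 and 313 TPM in ST. It was 802 and 775 TPM in RT and 1204 and 1227 TPM in the embryonic PGC-derived cells.

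The piRNA pathway silences transposons in the germ line with small RNAs bound to PIWI proteins. Of 14 of its genes measured, 13 fell and none rose, with a median of -1.42, and Pld6, a nuclease of piRNA production, did not pass (3.60 and 3.15 TPM in LT and 2.50 and 0.668 TPM in ST, limma adjusted p = 0.1) unless the first ST library was left out (-1.39). Mov10l1, the helicase that starts piRNA processing, was at 16.05 and 16.04 TPM in LT and 1.26 and 1.89 TPM in ST (-2.74, limma adjusted p = 9.7e-07). Mael, a piRNA and transposon silencing factor, was at 43.2 and 39.1 TPM in LT and 7.36 and 7.45 TPM in ST (-2.32). Asz1, a scaffold on the mitochondrial surface, was at 20.05 and 18.8 TPM in LT and 3.73 and 3.22 TPM in ST (-2.19). The ST libraries were low for these 3 genes. Gtsf1, a PIWI cofactor, fell by 2.28, Fkbp6, a cochaperone, fell by 2.13, and Piwil2, a PIWI protein itself, fell by 1.65. The other 7 genes of the list did not reach the level that makes a member.

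**Figure D2:**
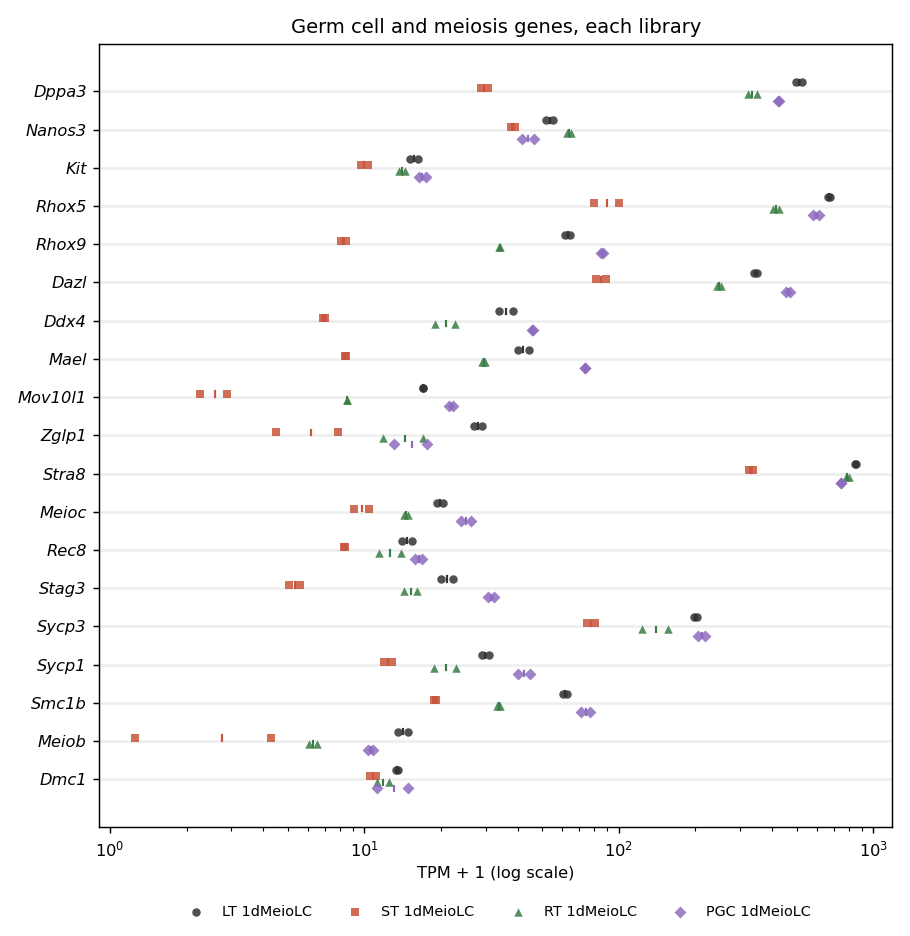
TPM + 1 on a log scale for 19 germ cell and meiosis genes in every 1dMeioLC library, with short vertical marks at the means, for LT, ST, RT and embryonic PGC-derived cells (2 libraries each). The ST squares lie to the left of the LT circles in each row, with Dppa3 the widest gap and Dmc1 among the narrowest.

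Genes of meiotic entry fell in part. Of 13 measured, 7 fell and 1 rose, with a median of -0.61. Zglp1, a transcription factor that acts downstream of BMP to give the oogenic fate, was at 28.0 and 26.05 TPM in LT and 6.87 and 3.51 TPM in ST (-2.23, limma adjusted p = 0.00013). Stra8 (chr6:34920163-34939344), the RA-induced gatekeeper of meiosis, was at 845 and 858 TPM in LT and 336 and 323 TPM in ST (-1.37, limma adjusted p = 0.00024). By the group means Stra8 was 2.58-fold lower in ST. Meioc, which stabilises meiotic transcripts, fell by 1.02 and its partner gene Ythdc2 was at 3.47 and 3.05 TPM in LT and 2.43 and 2.25 TPM in ST (limma adjusted p = 0.094, not passed). Gata2, a BMP-responsive factor of early oogonia, fell from 3.96 and 4.59 TPM to 0.652 and 1.36 TPM. Id3, a BMP target, was the gene that rose (0.56). Mga, a subunit of a complex that represses meiotic genes, was at 7.78 and 7.41 TPM in LT and 6.99 and 8.19 TPM in ST (limma adjusted p = 1).

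Most genes of the meiotic axis and synaptonemal complex were lower in ST. Of 13 genes measured, 11 fell and none rose, with a median of -1.28. Syce1 (38.4 and 41.7 TPM in LT, 20.5 and 28.1 TPM in ST, limma adjusted p = 0.067) and Syce3 (18.4 and 19.4 TPM, 21.5 and 18.6 TPM, limma adjusted p = 0.901), both central element proteins, did not pass. Syce1, with a log2 fold change of -0.71, did pass on the 4 libraries alone, on the 1dMeioLC groups alone and with a pseudocount of 5. Sycp3, the axial element protein, was at 196 and 201 TPM in LT and 73.8 and 79.4 TPM in ST (-1.36, limma adjusted p = 0.0005). Tex12, another central element protein, was at 88.9 and 83.7 TPM in LT and 26.8 and 20.8 TPM in ST (-1.82, limma adjusted p = 5.9e-06). Sycp1, the transverse filament, was at 29.8 and 28.0 TPM in LT and 10.9 and 11.8 TPM in ST (-1.28, limma adjusted p = 5.3e-05). For these 3 genes the groups were far apart. Among the meiotic cohesins, Stag3 fell by 1.99, Smc1b fell by 1.70 and Rec8 fell by 0.81 on the log2 scale. The HORMA-domain axis genes Hormad2 and Hormad1 had log2 fold changes of -1.84 and -0.91.

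Recombination genes fell in part. Of 22 measured, 8 fell and none rose, with a median of -0.36, while 14 did not pass. Without the second LT library 5 fell. Meiob, a single-strand DNA binding protein of meiotic recombination, had the largest fall. It was at 12.52 and 13.8 TPM in LT and 0.258 and 3.27 TPM in ST (-2.61, limma adjusted p = 0.0017), with the 2 ST libraries far apart and a change of -1.72 without the first of them. Tex15 was at 20.4 and 18.9 TPM in LT and 6.67 and 6.37 TPM in ST (-1.45, limma adjusted p = 1.2e-05), and it too is needed for recombination. Sun1, the nuclear envelope protein that holds meiotic telomeres, was at 9.01 and 9.74 TPM in LT and 5.33 and 5.795 TPM in ST (-0.66, limma adjusted p = 0.00036). Dmc1, the meiotic strand-exchange recombinase, was at 12.2 and 12.6 TPM in LT and 10.1 and 9.52 TPM in ST and did not pass (limma adjusted p = 0.22). Over the late germ cell, piRNA, synaptonemal and recombination lists together, 45 of 63 genes fell and none rose, against 20.8% lower among all members. Of the 63, 55 reached 1 TPM in all 4 libraries and 5 in both LT libraries alone.

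The promoters of 3 genes that fell are shown, each with CACGTG, a motif found before some of the germ cell genes that fell. The bases are those before the RefSeq start site (GRCm38.p6), printed 5′ to 3′ on the gene's strand up to where the GENCODE gene record begins. Capitals mark CACGTG, an E-box bound by MAX and MGA, and TTCCCGC or its reverse complement, a core element bound by E2F6. These factors are subunits of PRC1.6, the repressor complex that keeps germline genes silent in other cells. The windows are chr10:88459337-88459568 on the plus strand (Sycp3), chr9:50561326-50561518 on the minus strand (Tex12) and chr3:40708621-40708854 on the plus strand (Slc25a31).
Sycp3: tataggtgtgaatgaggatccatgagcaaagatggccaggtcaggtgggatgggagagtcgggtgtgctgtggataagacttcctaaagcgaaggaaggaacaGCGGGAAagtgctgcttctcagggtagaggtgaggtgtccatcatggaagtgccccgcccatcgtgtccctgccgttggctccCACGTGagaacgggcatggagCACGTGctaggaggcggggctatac
Tex12: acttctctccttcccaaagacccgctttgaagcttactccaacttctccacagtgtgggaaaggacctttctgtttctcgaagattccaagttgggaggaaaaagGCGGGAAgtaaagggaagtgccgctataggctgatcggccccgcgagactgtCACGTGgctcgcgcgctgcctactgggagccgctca
Slc25a31: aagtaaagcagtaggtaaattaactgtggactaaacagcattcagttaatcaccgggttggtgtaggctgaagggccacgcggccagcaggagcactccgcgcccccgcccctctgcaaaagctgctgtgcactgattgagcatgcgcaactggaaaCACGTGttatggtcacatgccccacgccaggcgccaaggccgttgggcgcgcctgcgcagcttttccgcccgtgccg
CACGTG starts 64 and 43 bases before the RefSeq start of Sycp3 and 93 bases before those of Tex12 and Slc25a31, and TTCCCGC lies 147 bases before that of Sycp3 and 145 before that of Tex12. Within 250 bases before the start, on either strand, CACGTG was found in 7 of 11 lower synaptonemal and axis genes, 6 of 14 lower late germ cell genes, 3 of 10 lower piRNA genes and 1 of 6 lower recombination genes with a RefSeq promoter. Over the 4 lists it was in 15 of 38 (39.47%), against 6.86% of the 27025 symbols with a promoter and 9.565% of the 10883 members with one. TTCCCGC was in 7 of 38 (18.42%), against 4.381% of all symbols and 7.93% of members. Genes of these lists that did not pass were not counted, so the shares cannot set the genes that fell apart from other germ cell genes. A match describes the letters of these windows and is no measure of binding.

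RA response genes rose in part in ST. Of 21 measured, 13 rose, 1 fell and 7 did not pass, with a median of 0.50. Dhrs3, an RA-induced enzyme that turns retinal back into retinol, was at 133 and 133 TPM in LT and 311 and 303 TPM in ST (1.197, limma adjusted p = 0.00034). Hoxb1, a direct target of RA receptors, was at 1.16 and 0.561 TPM in LT and 7.76 and 5.94 TPM in ST (2.09, limma adjusted p = 0.00024). Crabp2, which carries RA to its receptor, rose by 1.02, and the receptor gene Rarb rose by 0.61. Crabp1, a cytosolic RA-binding protein, was the gene that fell, from 28.1 and 29.7 TPM to 11.5 and 6.95 TPM (-1.58, limma adjusted p = 5.1e-05). Of the RA-degrading enzymes, Cyp26a1 was at 77.4 and 72.4 TPM in LT and 76.9 and 78.6 TPM in ST (limma adjusted p = 0.937) and Cyp26b1 rose from 24.4 and 23.1 TPM to 39.6 and 35.8 TPM (0.65). Rarb and Cyp26b1 no longer passed with a pseudocount of 0.1.

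Hox genes pattern the body axis and respond to RA. Of 29 measured, 15 rose and none fell, with a median of 0.52. Hoxd9 was at 5.94 and 5.64 TPM in LT and 16.7 and 14.6 TPM in ST (1.29, limma adjusted p = 0.00068). Cdx1, a caudal factor upstream of Hox genes, was at 7.91 and 8.56 TPM in LT and 27.1 and 21.6 TPM in ST (1.45, limma adjusted p = 0.0017). The count of Hox genes that rose dropped to 6 without the first ST library, to 6 without the second LT library and to 7 with a pseudocount of 0.1. Without the first ST library 1 fell, and 1 or 2 fell with a pseudocount of 5, under quantile normalization and on the 4 libraries alone.

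BMP and Nodal genes were mixed in ST, with Nodal and its co-receptor among those that rose. Of 19 BMP genes measured, 7 rose (36.8%) and 4 fell (21.1%), with a median of 0.24. Among all members 21.1% rose and 20.8% fell. Bmp2, a ligand of the fetal ovary, was at 5.53 and 5.41 TPM in LT and under 1 TPM in both ST libraries (-1.89, limma adjusted p = 5.7e-06). The inhibitory Smad6 and the target genes Id1 and Id2 rose, by 0.77, 0.52 and 0.49. Of 18 TGFb and Nodal genes, 9 rose (50%) and 4 fell (22.2%), with a median of 0.35. In both lists the share that fell was near that of all members. Tdgf1 (Cripto), the Nodal co-receptor, was at 2.72 and 2.73 TPM in LT and 32.0 and 30.2 TPM in ST (3.11, limma adjusted p = 2.3e-08). Nodal was at 3.16 and 2.80 TPM in LT and 13.4 and 11.6 TPM in ST (1.76, limma adjusted p = 0.00011). Lefty1, a Nodal target and inhibitor, was at 3.14 and 5.37 TPM in LT and 25.5 and 23.9 TPM in ST (2.32, limma adjusted p = 3.2e-05). The ST libraries were high for all 3. Fst, an activin inhibitor that granulosa cells also make, fell from 16.99 and 16.2 TPM to 4.82 and 3.48 TPM (-1.79, limma adjusted p = 1.0e-05).

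Naive pluripotency genes rose in part in ST. Of 18 measured, 11 rose, 4 fell and 3 did not pass, with a median of 0.44. Nanog, a core pluripotency factor, was at 29.6 and 26.3 TPM in LT and 76.5 and 71.6 TPM in ST (1.38, limma adjusted p = 6.3e-06). Fgf4, a growth factor of the inner cell mass, was at 2.23 and 2.35 TPM in LT and 12.9 and 12.1 TPM in ST (2.04, limma adjusted p = 1.5e-06). Pou5f1 (Oct4) was low in both, at 2.13 and 1.45 TPM in LT and 5.09 and 7.05 TPM in ST (1.34, limma adjusted p = 0.00029). The ST libraries were the higher ones for all 3. Dppa2, Tbx3, Tfcp2l1 and Esrrb, all factors of the naive state, rose by 1.43, 1.33, 0.85 and 0.83. Eras, an embryonic stem cell Ras protein outside the lists, was at 3.38 and 1.51 TPM in LT and 21.6 and 17.4 TPM in ST (2.62), and was chosen after its values were seen. The 4 that fell were Tcl1 (-1.14), Tdh (-0.998), Dppa4 (-0.82) and Nr5a2 (-0.59), the last not in the fit of the 4 libraries alone. Obox6, a homeobox gene of early embryos, rose from 0.333 and 0.485 TPM to 17.7 and 13.8 TPM (3.56, limma adjusted p = 2.4e-07). The RT libraries were between LT and ST for Nanog, at 49.2 and 49.3 TPM, and for Tdgf1, at 4.87 and 5.08 TPM.

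**Figure D3:**
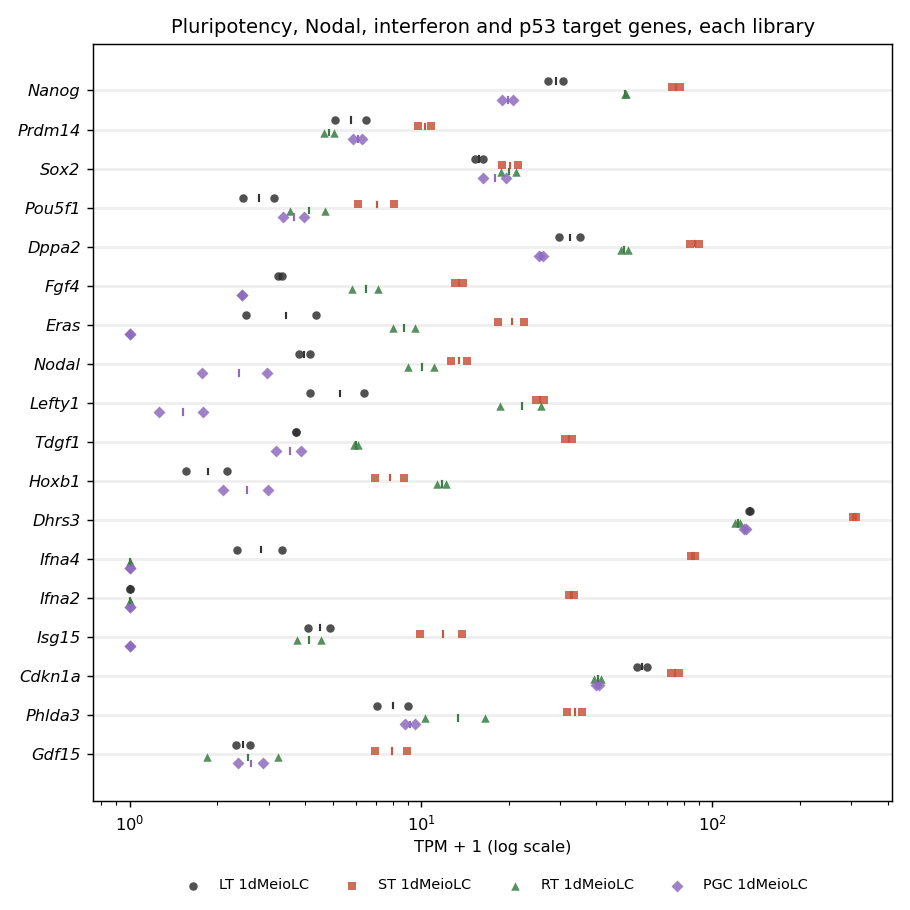
TPM + 1 on a log scale for 18 pluripotency, Nodal, interferon and p53 target genes in every 1dMeioLC library, with short vertical marks at the means, for LT, ST, RT and embryonic PGC-derived cells (2 libraries each). The ST squares lie to the right of the LT circles in each row, and both RT and embryonic PGC-derived libraries are at 0 TPM for Ifna2 and Ifna4.

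Many germ layer genes were too low to be members. Of 25 primitive streak and mesoderm genes, 9 were members, of which 3 rose and none fell. T (Brachyury), a marker of the streak, was not a member, and Mixl1, another, was at 2.47 and 3.12 TPM in LT and 0.767 and 1.66 TPM in ST (limma adjusted p = 0.077). Without the first LT library 1 gene of the list fell. Among 13 endoderm genes, 6 rose and 3 fell, with a median of 0.43. The count that fell dropped to 1 with a pseudocount of 0.1, with no filter and with the filter at 5 TPM. It was also 1 after rescaling to protein-coding genes, on the 4 libraries alone and on the 1dMeioLC groups alone. It dropped too without the first ST library or without either LT library. The epithelial keratin Krt18 was at 54.3 and 56.0 TPM in LT and 108 and 106 TPM in ST (0.94, limma adjusted p = 5.1e-05), and Gata6, an endoderm factor that somatic gonad cells also express, was at 31.6 and 28.6 TPM in LT and 49.7 and 48.8 TPM in ST (0.69), which did not pass with a pseudocount of 0.1 or without the second LT library (0.62). Ttr, a transport protein of yolk sac and liver, was at 8.17 and 8.55 TPM in LT and was listed at 0 in both ST libraries.

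Targets of p53 rose in part at this stage. Of 25 measured, 12 rose and 1 fell, with a median of 0.32. Phlda3, a p53-induced repressor of Akt, was at 7.99 and 6.06 TPM in LT and 30.7 and 34.6 TPM in ST (2.08, limma adjusted p = 2.4e-05). Gdf15, a stress cytokine, was at 1.32 and 1.58 TPM in LT and 5.94 and 7.92 TPM in ST (1.69, limma adjusted p = 0.0013). Cdkn1a (p21), the cell cycle inhibitor that p53 induces, was at 58.6 and 53.9 TPM in LT and 71.2 and 76.0 TPM in ST (0.38, limma adjusted p = 0.0012). The gap between the groups was smallest for Cdkn1a on the log2 scale. Sesn2, a stress sensor, rose by 1.11 and Pmaip1 (Noxa), a killer protein of the Bcl2 family, rose by 0.97. Mdm2, the ubiquitin ligase that removes p53, was the gene that fell (-0.35), and it no longer passed without the second ST library (-0.24) or the first LT library (-0.33). The count that rose was 7 without the first ST library and 7 without the first LT library. Of 15 Bcl2 family genes, 6 rose and 3 fell, among them the survival gene Bcl2l1 (0.67) and the killer gene Bmf (0.66), which both rose. Without the first LT library 1 of this family fell.

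Cell cycle genes were lower more often than higher. Of 26 proliferation genes, 15 did not pass, 2 rose (7.69%) and 9 fell (34.6%), with a median of -0.18. Among all members 21.1% rose and 20.8% fell. After rescaling to protein-coding genes 3 of the list rose and 8 fell. Mki67, which marks cycling cells, was at 16.8 and 17.03 TPM in LT and 14.3 and 14.1 TPM in ST and did not pass (limma adjusted p = 0.13). Ccnb1, the mitotic cyclin, was at 98.3 and 102 TPM in LT and 67.7 and 70.0 TPM in ST (-0.54, limma adjusted p = 0.00015). Plk1, a mitotic kinase, was at 23.9 and 23.999 TPM in LT and 37.0 and 45.1 TPM in ST and rose (0.75, limma adjusted p = 0.00061).

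Homologous recombination and damage checkpoint genes were lower more often than higher, with 13 of 27 fallen and 4 risen and a median of -0.38. Fancd2, of the Fanconi crosslink repair pathway, was at 6.39 and 6.69 TPM in LT and 3.05 and 2.81 TPM in ST (-0.94, limma adjusted p = 0.0001). Rad50, of the break-sensing MRN complex, was at 24.8 and 26.0005 TPM in LT and 14.6 and 13.8 TPM in ST (-0.80). The checkpoint kinase genes Chek1 and Atr fell, with log2 fold changes of -0.66 and -0.73, while Atm was at 3.44 and 3.28 TPM in LT and 3.02 and 3.29 TPM in ST (limma adjusted p = 0.62). Rad54l, a recombination motor, rose by 0.57. Without either ST library or without the second LT library 1 gene rose. On the 4 libraries alone 8 fell and 2 rose.

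Genes of telomerase and telomere binding divided, with 3 of 22 risen and 7 fallen and a median of -0.03, or 0.06 and 6 risen after rescaling to protein-coding genes. Without the first ST library or the first LT library 1 rose. Apart from Terc itself, the largest fall was that of Pot1a, which covers the telomere overhang, at 3.85 and 3.95 TPM in LT and 1.62 and 1.69 TPM in ST (-0.88, limma adjusted p = 0.00035). Among further shelterin genes, Terf2ip (Rap1) fell by 0.66 and Tinf2 fell by 0.63. Terf1 and Terf2, which bind the repeats, did not pass (limma adjusted p = 0.082 and 0.18), and passed as higher, at 0.34 and 0.26, after rescaling to protein-coding genes. Tert, the catalytic subunit, was at 0.982 and 1.36 TPM in LT and 2.30 and 2.25 TPM in ST (0.60, limma adjusted p = 0.016). Tert no longer passed on the 4 libraries alone or on the 1dMeioLC groups alone (limma adjusted p = 0.058 and 0.065). Nor did it pass without the first LT library (0.47) or without either ST library (0.59 and 0.61). Dkc1, which binds telomerase RNA, rose from 43.3 and 44.6 TPM to 56.7 and 58.3 TPM (0.38).

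RNA of the type I interferon ligands Ifna4 and Ifna2 was found in both ST libraries, with Ifna4 at a low level in LT also. Ifna4 (chr4:88841861-88842421) was at 1.33 and 2.32 TPM in LT and 86.2 and 83.2 TPM in ST (4.94, limma adjusted p = 2.3e-08). Ifna2 (chr4:88682881-88683912) was listed at 0 in both LT libraries and stood at 31.1 and 32.4 TPM in ST. Ifna6 was at 0.0874 and 0 TPM in LT and at 2.31 and 1.03 TPM in ST. Ifnb1, another type I ligand, was listed at 0 in every 1dMeioLC library. These intronless genes lie in 1 cluster and are close copies of each other, so reads could be shared between them. Both RT and both embryonic PGC-derived 1dMeioLC libraries were listed at 0 for Ifna2 and Ifna4. Ifnar2, a chain of the receptor, was at 12.1 and 11.4 TPM in LT and 19.3 and 22.6 TPM in ST (0.78, limma adjusted p = 0.0016), and Ifnar1, the other chain, at 12.45 and 13.5 TPM in LT and 16.4 and 14.0 TPM in ST (limma adjusted p = 0.17).

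The stretches before the 2 Ifna genes are shown for the motif that interferon regulatory factors bind, GAAA and GAAA with any 2 bases between them, in capitals. They lie at chr4:88683913-88684029 on the minus strand (Ifna2) and chr4:88841566-88841735 on the plus strand (Ifna4), from the same RefSeq table and build.
Ifna2: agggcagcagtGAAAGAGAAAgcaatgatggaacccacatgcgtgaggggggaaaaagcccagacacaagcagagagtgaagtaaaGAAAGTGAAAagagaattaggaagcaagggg
Ifna4: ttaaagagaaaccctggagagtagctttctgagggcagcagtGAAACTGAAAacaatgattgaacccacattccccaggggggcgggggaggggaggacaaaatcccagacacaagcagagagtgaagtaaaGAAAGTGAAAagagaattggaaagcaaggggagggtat
The motif starts 239 and 164 bases before the RefSeq start of Ifna2 and 208 and 118 bases before that of Ifna4. On either strand it occurs within 250 bases of the start in 3.463% of all symbols and in 3.179% of members. These matches are a description of the sequence only.

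Interferon response genes are the usual targets of such ligands. Of 25 measured, 5 rose (20%) and 4 fell (16%), with a median of -0.02. These shares were no higher than those of all members, of which 21.1% rose and 20.8% fell. After rescaling to protein-coding genes 7 rose and 2 fell, with a median of 0.07. Among all members 25.2% rose and 16.1% fell after that rescaling. Isg15, a ubiquitin-like interferon target, was at 3.10 and 3.88 TPM in LT and 12.8 and 8.93 TPM in ST (1.39, limma adjusted p = 0.00017). Mx1, an antiviral GTPase, was at 2.43 and 2.68 TPM in LT and 0.121 and 0.161 TPM in ST (-1.64, limma adjusted p = 0.00028). Without the first ST library or either LT library 3 rose, and when any 1 library was left out 1 or 2 fell. Of 11 antigen presentation genes, 7 rose and none fell, with a median of 0.47, and 3 or 4 rose when any 1 library was left out. Psmb8, an immunoproteasome subunit, was at 21.3 and 22.4 TPM in LT and 49.0 and 40.5 TPM in ST (0.999, limma adjusted p = 0.00028), and the class I gene H2-T23 at 7.36 and 6.99 TPM in LT and 14.9 and 11.5 TPM in ST (0.79).

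Chromatin regulators changed in both directions. Of 18 DNA methylation and reprogramming genes, 8 rose and 4 fell, with a median of 0.30. Tet2, which oxidises methylcytosine, was at 5.18 and 5.74 TPM in LT and 11.4 and 10.3 TPM in ST (0.87, limma adjusted p = 0.00032), and Tdg, which excises the oxidised base, rose by 0.90. Without the first LT library 2 of the list fell. The de novo methyltransferase Dnmt3a rose by 0.50, and the maintenance enzyme Dnmt1 was at 20.02 and 21.1 TPM in LT and 20.5 and 18.3 TPM in ST (limma adjusted p = 0.5). Suz12 of Polycomb complex PRC2 fell by 0.60. Of 14 PRC1.6 repressor genes, 3 rose and 3 fell, with a median of 0.01. These shares (21.4% each) were near those of all members, 21.1% higher and 20.8% lower. On the 4 libraries alone 1 rose. Pcgf6, E2f6, Max, Mga, Ring1 and Rnf2 were among the genes of PRC1.6 that did not pass. Hdac1, a deacetylase of the complex, was at 16.05 and 16.7 TPM in LT and 29.7 and 30.9 TPM in ST (0.85, limma adjusted p = 3.1e-06), while Hdac2 fell by 0.45 and the heterochromatin protein gene Cbx3 fell by 0.84.

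Imprinted genes numbered 8 risen and 4 fallen of 21, with a median of 0.24. Phlda2, a maternally expressed growth repressor of the placenta, was at 339 and 327 TPM in LT and 90.2 and 91.9 TPM in ST (-1.86, limma adjusted p = 2.8e-07). Grb10, an insulin receptor adaptor, was at 22.4 and 23.05 TPM in LT and 36.7 and 39.7 TPM in ST (0.72), and H19, a maternally expressed long noncoding RNA, at 518 and 513 TPM in LT and 691 and 695 TPM in ST (0.43). Phlda2 was the one imprinted gene measured with a fall of at least 2-fold.

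Stress and metabolic genes changed in part. Of 17 integrated stress and unfolded protein response genes, 9 rose and none fell, with a median of 0.39. Chac1, which degrades glutathione under stress, was at 6.75 and 5.37 TPM in LT and 16.7 and 16.5 TPM in ST (1.32, limma adjusted p = 0.00039), and Phgdh, the first enzyme of serine synthesis, at 28.1 and 26.6 TPM in LT and 48.3 and 51.1 TPM in ST (0.84). Among 16 oxidative stress genes 6 rose and 6 fell. Gpx4, which reduces lipid peroxides, was at 224 and 241 TPM in LT and 503 and 524 TPM in ST (1.14, limma adjusted p = 3.7e-06), and the metallothionein Mt1 at 574 and 575 TPM in LT and 312 and 293 TPM in ST (-0.92). Of 21 hypoxia and glycolysis genes, 5 rose and 7 fell, with 4 fallen without the first ST library and 9 risen after rescaling to protein-coding genes. The glucose transporter Slc2a3 rose by 1.204, and Vegfa, the angiogenic factor induced by hypoxia, fell by 0.94. Of 22 cholesterol synthesis genes, 7 rose and 1 fell, led by Pmvk (1.42) and Mvd (0.86), both of the mevalonate pathway. Without either ST library 4 of them rose, and without the second LT library 3.

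Many genes of protein synthesis fell by small amounts. Of 83 cytosolic ribosomal protein genes, 57 fell and 10 rose, with a median of -0.27, but under quantile normalization 30 fell and 23 rose. With TPM rescaled to protein-coding genes, 16 rose. Many processed pseudogenes copy these genes, so their single levels are uncertain. Of 15 mitochondrially encoded genes, 4 rose (26.7%) and 3 fell (20%), near the 21.1% and 20.8% of all members. Together these 15 genes gave 78787 and 76704 TPM in LT and 80089.7 and 80575 TPM in ST. The short gene mt-Nd4l, which overlaps mt-Nd4, was at 15.1 and 15.4 TPM in LT and 145 and 194 TPM in ST (3.38, limma adjusted p = 0.00062), while mt-Nd4 itself changed by 0.22.

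Some markers of other cell types that the sorted fraction could hold differed as well, and their part in the results was not tested. Sums are over all genes of a list in the table, members or not. Of 10 macrophage genes measured, 8 fell and none rose, with a summed level of 330 and 321 TPM in LT and 98.6 and 96.9 TPM in ST. Of these 10, 2 became members through the LT libraries alone, so that a fall was favoured by the rule. C1qa, a complement chain of tissue macrophages, was at 12.6 and 10.96 TPM in LT and 0.846 and 0.282 TPM in ST, and lysozyme (Lyz2) was at 76.2 and 79.5 TPM in LT and 15.0 and 16.7 TPM in ST (-2.22, limma adjusted p = 0.00029). Csf1r, the macrophage growth factor receptor, did not follow, at 3.38 and 2.80 TPM in LT and 3.60 and 4.63 TPM in ST (limma adjusted p = 0.21). Of 7 endothelial genes 3 fell and 1 rose, with sums of 27.8 and 28.0 TPM in LT and 19.96 and 19.5 TPM in ST. Cdh5, the endothelial cadherin, was listed at 0 in both ST libraries. Of these 7 genes, 2 became members through the LT libraries alone, which again favoured a fall. Of 7 haemoglobin and erythroid genes 1 fell (none without the first ST or the first LT library, on the 1dMeioLC groups alone, with a pseudocount of 0.1 or after rescaling to protein-coding genes, and 3 with a pseudocount of 5), with sums of 1926 and 2019 TPM in LT and 2528 and 2539 TPM in ST. Alpha globin RNA (Hba-a1) was at 1092 and 1128 TPM in LT and 1465 and 1468 TPM in ST (limma adjusted p = 0.11). It passed as higher with a pseudocount of 5, under quantile normalization (0.74), on the 4 libraries alone and on the 1dMeioLC groups alone. In these fits 3, 2, 4 and 3 of the haemoglobin and erythroid genes rose.

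Gonadal somatic cells, the partners in the aggregates, were meant to be removed by the sort. Of 22 of their markers measured, 6 rose (27.3%) and 4 fell (18.2%), with a median of 0.08. These shares were near those of all members, of which 21.1% rose and 20.8% fell. The sums were 470.0 and 494 TPM in LT and 564 and 554 TPM in ST. Wt1, a factor of the somatic gonad, was at 38.8 and 34.2 TPM in LT and 64.7 and 60.9 TPM in ST (0.77, limma adjusted p = 9.8e-05). Wnt4, a female-determining signal, was at 35.4 and 37.0 TPM in LT and 73.4 and 69.4 TPM in ST (0.96), and Rspo1, which acts with it, at 14.1 and 14.0 TPM in LT and 4.31 and 3.48 TPM in ST (-1.62). The pregranulosa factor Foxl2 was at 9.04 and 9.90 TPM in LT and 12.4 and 10.3 TPM in ST (limma adjusted p = 0.2). Ptgds was at 4.14 and 4.94 TPM in LT and was listed at 0 in both ST libraries. Of 18 fibroblast and stroma genes, 9 rose and 5 fell, with sums of 745 and 739.8 TPM in LT and 833 and 855 TPM in ST. The matrix proteoglycan Dcn fell by 1.37, while Pdgfra, the stromal receptor, rose by 1.16 and Col1a1 by 0.61. Of 23 collagen genes measured, 12 rose and none fell.

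Of 10 sex-linked genes measured, 2 rose (20%), 1 fell (10%) and 7 did not pass, where 21.1% of all members rose and 20.8% fell. Xist, which coats the inactive X of female cells, was at 4.20 and 3.80 TPM in LT and 8.39 and 8.86 TPM in ST (0.95, limma adjusted p = 5.5e-05), and reads of its antisense gene Tsix cannot be told apart without strand. The Y-linked Eif2s3y was at 15.7 and 15.97 TPM in LT and 5.28 and 5.15 TPM in ST (-1.44, limma adjusted p = 2.8e-05), and the Y-linked Ddx3y at 5.83 and 5.64 TPM in LT and 4.65 and 5.25 TPM in ST (limma adjusted p = 0.24). Over the 8 members on the Y chromosome 4 fell and 0 rose, among them Zfy2 (-1.32), which is outside the list. The somatic partners were female, and the part of residual partner cells in these values was not tested.

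**Figure D4:**
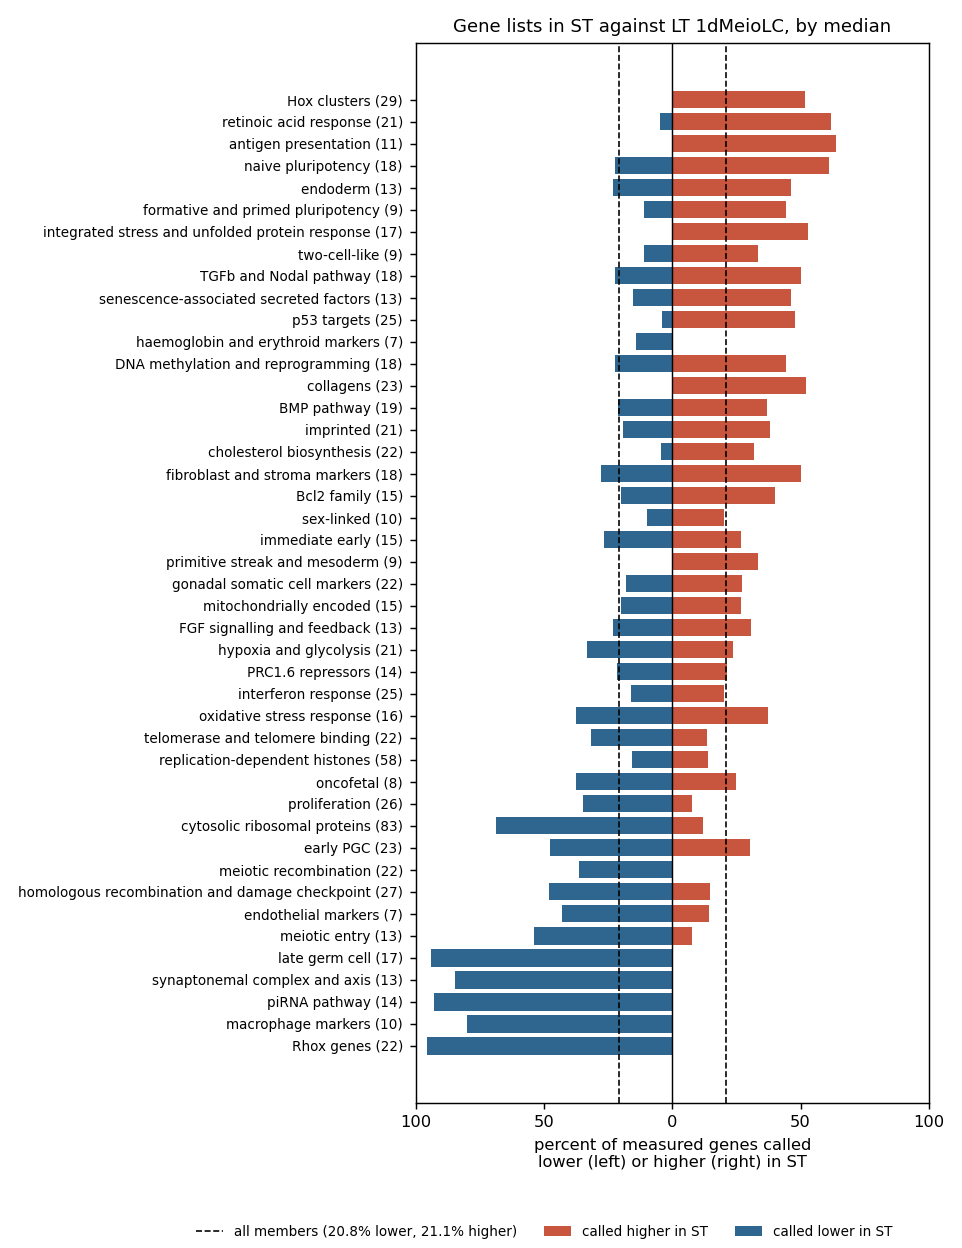
Percent of measured genes of each list called lower (left, blue) or higher (right, red) in ST. Lists have at least 7 measured genes (number in brackets) and are ordered by median log2 fold change. Blood and macrophage markers are shown only as separate macrophage and erythroid lists. Dashed lines mark the 20.8% lower and 21.1% higher among all members, and the Rhox, macrophage, piRNA, synaptonemal and late germ cell lists lie at the bottom.

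Several further lists held both genes that rose and genes that fell, where 21.1% of all members rose and 20.8% fell. Of 9 formative and primed pluripotency genes, 4 rose (44.4%) and 1 fell (11.1%), and of 9 genes of the two-cell-like state 3 rose and 1 fell. Of 13 senescence-associated secreted factors 6 rose (46.2%) and 2 fell (15.4%), and of 15 immediate early genes 4 rose and 4 fell. Of 13 FGF signalling genes 4 rose and 3 fell. Of 6 CDK inhibitors 1 rose and 2 fell, and of 8 oncofetal genes 2 rose and 3 fell. Of 58 replication-dependent histone genes 8 rose and 9 fell, and these near-identical copies share reads. Leaving out 1 library moved several of these counts. Without the first ST library 4 senescence-associated factors fell, 2 immediate early genes rose, 1 CDK inhibitor fell, and 4 histone genes rose and 5 fell. Without the second ST library 2 formative and primed genes and 5 histone genes rose and 1 CDK inhibitor fell. Without the first LT library 2 two-cell-like genes and 4 histone genes fell, and 2 immediate early genes rose. Without the second LT library 2 formative and primed genes and 1 histone gene rose, and 1 immediate early, 1 oncofetal and 5 histone genes fell. The fall among the formative and primed genes did not pass without the first ST library or either LT library.

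Among the largest changes of single genes were secreted peptide genes that were listed at 0 in both ST libraries. Pyy was at 34.4 and 33.6 TPM in LT, Gcg (proglucagon) at 16.1 and 12.4 TPM and Tff2 (a trefoil peptide) at 18.3 and 19.5 TPM, and all 3 were at 0 in ST. Wfdc17, a secreted protein gene of macrophages, was at 19.2 and 16.5 TPM in LT and 0 in ST. On the other side stood Ifna4, Obox6, mt-Nd4l and Tdgf1, given above. Several further entries among the largest were short RNA genes (Snord55, Snord60, Snord64, Mir147, Mir762, Mir7036b, Rnu7), whose TPM rest on few bases. Mir7036b passed in no fit that left out 1 library, and Rnu7 passed in such a fit only without the first LT library. Jam2, a junction protein, and Gc, the vitamin D binding protein, were chosen after their values were seen, and rose by 2.50 and 2.61.

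The difference between ST and LT at 1dMeioLC was then set against that at 1dEB, 1 day into the induction, in 1 interaction contrast over 8 libraries that share none between the stages. Of the members, 7467 (43.6%) had a different effect of the line at the 2 stages, with 2416 (14.1%) higher at 1dMeioLC and 5051 (29.5%) lower, and a median of -0.18. Rescaled to protein-coding genes the split was 3941 (23%) higher and 3571 (20.9%) lower, with a median of 0.05. At 1dEB itself 7255 (42.4%) differed, and 5066 (29.6%) rose and 2189 (12.8%) fell in ST.

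Many germ cell genes had a lower effect at the meiocyte-like stage. Of 17 late germ cell genes, 12 had a lower effect at 1dMeioLC than at 1dEB and none a higher one, with a median interaction of -1.43. Dazl changed by -0.24 at 1dEB (limma adjusted p = 0.0504) and by -2.02 at 1dMeioLC, an interaction of -1.78 (SE 0.12, limma adjusted p = 2.8e-06). Ddx4 changed by -0.35 at 1dEB (limma adjusted p = 0.18), with an interaction of -2.03 (limma adjusted p = 0.00021). Of 14 piRNA genes 11 had a lower effect and 1 a higher one. Of 22 recombination genes 6 had a lower effect and 2 a higher one, a share of lower ones near that of all members. Of 13 synaptonemal and axis genes, 9 of which fell at 1dEB already, 7 had a lower effect and none a higher one, and Sycp3 was not among them, with -0.66 at 1dEB and an interaction of -0.70 (limma adjusted p = 0.069). Stra8 did not pass either, with -0.88 at 1dEB and an interaction of -0.49 (limma adjusted p = 0.15). Nanog was lower in ST at 1dEB (-0.89) and higher at 1dMeioLC, an interaction of 2.27 (limma adjusted p = 1.1e-06), and Tdgf1 followed the same course (-0.76, interaction 3.87).

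Many p53, interferon and stroma genes had a smaller effect at the meiocyte-like stage. Cdkn1a was at 77.8 and 77.3 TPM in LT and 833 and 849 TPM in ST at 1dEB, an effect of 3.42 against 0.38 at 1dMeioLC (interaction -3.04, limma adjusted p = 1.2e-08). Of 25 p53 targets 19 rose at 1dEB, and 11 had a lower effect at 1dMeioLC with 1 higher, while Phlda3 rose by 2.72 at 1dEB with an interaction that did not pass (-0.64, limma adjusted p = 0.074). Of 25 interferon response genes 24 rose at 1dEB, and 23 had a lower effect at 1dMeioLC, with a median interaction of -1.75. Among the ligands, Ifna4 was listed at 0 in all 4 libraries of 1dEB, and Ifna2 was at 0 and 0.174 TPM in LT and 0.190 and 0 TPM in ST there. All 18 fibroblast and stroma genes measured had a lower effect at 1dMeioLC than at 1dEB, with a median interaction of -2.90. Of 26 proliferation genes 23 fell at 1dEB, and 16 had a higher effect at 1dMeioLC.

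**Figure D5:**
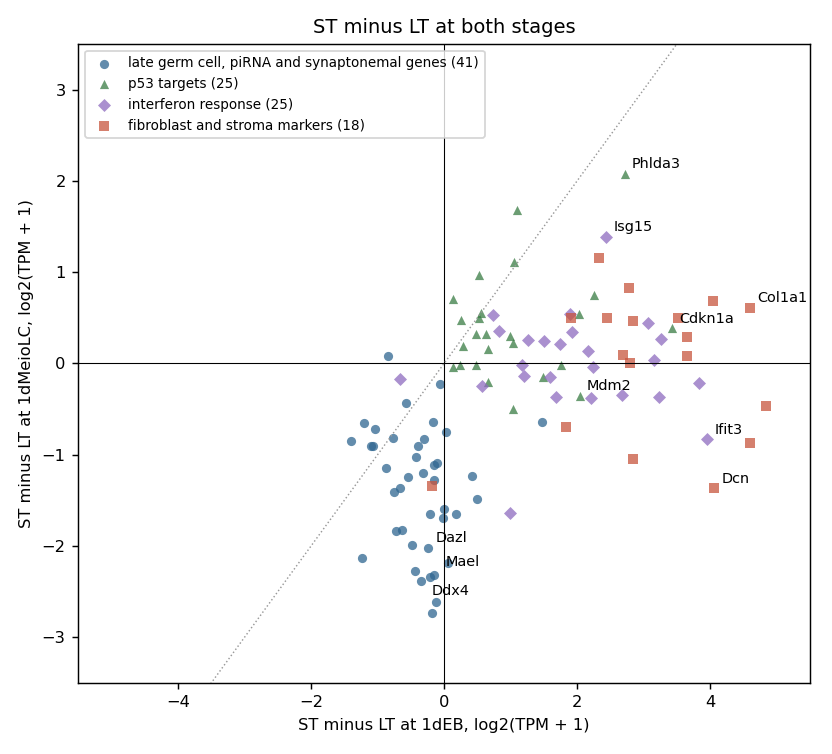
Log2 fold change of ST against LT at 1dEB (x axis) and at 1dMeioLC (y axis), on log2(TPM + 1), for 41 late germ cell, piRNA and synaptonemal genes, 25 p53 targets, 25 interferon response genes and 18 fibroblast and stroma genes, with a dotted line of equal effects. Most germ cell genes lie low near the vertical axis, and most interferon and stroma genes lie far to the right near the horizontal axis.

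By position in the genome the median log2 fold changes of the autosomes were close to 0, from -0.08 to 0.06. That of the X chromosome was -0.14, or -0.10 without the Rhox genes. The 8 members on the Y chromosome had a median of -0.91, with 4 lower and 0 higher (50% called). Over 37 members on the mitochondrial chromosome the median was -0.16, with 14 lower and 6 higher (54.1% called). The distal end of a chromosome was taken as the end of its last annotated gene, not the telomere itself. Genes within 2 Mb of that point had a median of 0.03 over 396 members, with 41.4% called. Beyond 20 Mb the median was -0.01 over 13819 members, with 41.9% called. Bins between these had medians from 0.03 to 0.06. Members with a group mean over 100 TPM had a median of -0.16 over 1300 genes, and 172 small nucleolar RNA genes had a median of -0.36.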

How the data were processed

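Per the labels, total RNA went into NEBNext Ultra libraries. Bowtie2, HISAT2, RSEM, R 3.4.2, DESeq2 and the build mm10 stand in the submitters' processing notes without their roles. The values are TPM, as deposited by the authors in 1 table of 53564 gene symbols, and every column used sums to 1000000. The depth of a library is unknown, so no counting interval is printed. Column names matched sample titles for 16 libraries in 8 groups of 2. A further 12 columns with repeated names were left out. No pair of libraries held identical values.

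The fit took log2 of TPM plus a pseudocount of 1 for 21935 genes that reached 1 TPM in 2 or more of the 16 libraries. It used limma 3.58.1 (R 4.3.3) with a mean for each group, a trend on expression and no replicate block, which left 8 residual and 2.23 prior degrees of freedom. Tests were 2-sided, p-values were adjusted by Benjamini-Hochberg over the 21935 genes, and the threshold was 0.05. The difference between the stages was a contrast of 4 group means, and no library served both stages. TPM are relative, so a larger share of one class of RNA lowers all others. Data were simulated for ST against LT 1dMeioLC with normal noise and 200 of 21935 genes changed. On the log2 scale, 89 of 100 changes of 1 and 96 of 100 changes of 2 were recovered, with 15 false among 200 calls. The changed genes were drawn from those at 5 TPM or more in LT, so recovery at lower levels was not measured.

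The members and the 41 gene lists were chosen with earlier results of these data known, 4 more lists were gathered by symbol, and lists overlap. The macrophage and the erythroid lists were split from 1 written list of blood and macrophage markers. Unsplit, 9 of its 17 measured genes fell and 0 rose, with sums of 2256 and 2340 TPM in LT and 2627 and 2636 TPM in ST. A rule named 20 anchor genes (among them Terc, Dppa3, Dazl, Stra8 and Nanog) and up to 4 called genes of each list with the largest change and at least 5 TPM in the higher group. It added the 10 highest and 10 lowest called changes with at least 10 TPM and no overlap, and the 5 highest and 5 lowest differences between the stages with at least 10 TPM. These additions passed over predicted genes (Gm numbers and Rik symbols). All other genes were picked with their values in view, and some list genes are not reported here. Gene positions come from GENCODE M21 on mm10, where 53304 symbols had 1 record, and promoters from RefSeq (GRCm38.p6). Spreadsheet dates stood in place of 24 symbols. Alternatives were the pseudocount, the filter, the scaling, the libraries in the fit, each library left out, and a replicate block.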

Additional observations from a re-analysis of the deposited data

Results flagged for a closer look

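The effect of the line differed between day-1 meiocyte-like cells and day-1 embryoid bodies for 7467 members by limma's test of the difference itself, with 2416 higher and 5051 lower at 1dMeioLC. Among the 5 largest in each direction, the ligand genes Ifna2 and Ifna4 had differences of 5.02 and 4.94 on the log2(TPM + 1) scale, both near or at 0 TPM in every 1dEB library. Pyy, a gut peptide hormone, had a difference of -7.84. At 1dEB it was at 0 and 0.285 TPM in LT and 5.89 and 7.01 TPM in ST, and at 1dMeioLC at 34.4 and 33.6 TPM in LT and 0 in ST. Ctla2a, a protease inhibitor gene, had a difference of -7.57, from 1.29 and 0.683 TPM in LT and 26.7 and 31.2 TPM in ST at 1dEB to 12.6 and 12.8 TPM and 0.209 and 0 TPM at 1dMeioLC. Npy, a neuropeptide, had a difference of -7.20, from 12.7 and 11.4 TPM and 349 and 321 TPM at 1dEB to 25.95 and 23.02 TPM and 5.44 and 2.07 TPM.

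The other 5 were genes of small RNAs, whose TPM rest on transcripts of 58 to 110 bases. The differences were 7.31 for Snord64, 5.14 for Mir6918 and 4.88 for Mir7036b, and -5.90 for Mir199a-2 and -5.73 for Mir7678. Mir6918 did not pass at 1dMeioLC itself (limma adjusted p = 0.0511).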

How the results depend on the processing

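The counts of genes that rose and fell between ST and LT 1dMeioLC stayed within 1.5 times of 3618 and 3557 in every alternative run. They were 3103 and 3165 with a pseudocount of 0.1, 3833 and 3720 with 5, 3175 and 3144 with no filter, 2752 and 2761 at 5 TPM or more, 3493 and 3301 after quantile normalization, 2775 and 2800 on the 4 libraries alone, and 3179 and 3225 on the 1dMeioLC groups alone. Leaving out 1 library gave 2458 to 2815 higher and 2438 to 2968 lower. With 1 library left in a group, that library was assumed to vary like the other groups. Among genes at 1 TPM or more in all 4 libraries the counts were 2758 and 2561, and among protein-coding genes 2890 and 2768; both choices were made after seeing the data. For the difference between the stages, scaling to protein-coding genes gave 3941 higher, and quantile normalization gave 4025 higher and 3329 lower, against 2416 and 5051. Leaving out 1 library gave 1891 to 2175 higher and 4242 to 4666 lower.

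Libraries with the same replicate number did not deviate together (correlation of deviations across genes -0.005 for ST and LT 1dMeioLC, and -0.056 to 0.042 over the pairs of groups), so the numbers were not taken as pairs. With the replicate block 3539 genes rose and 3506 fell, and the difference between the stages had 2366 higher and 4989 lower. Syce1 (-0.71) and Nanos3 (-0.48) passed with the block.

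Over 313 genes and their alternatives, 3792 values kept direction and side of the threshold, 211 no longer passed, 44 came to pass and 6 turned sign. The 6 belong to genes that did not pass in the main comparison either: Atm (0.0061), Dnmt1 (0.013) and Mga (0.082) after scaling to protein-coding genes, Syce3 (-0.024) and Mga (0.096) without the first ST library, and Mga (0.027) without the first LT library. Leaving out 1 library put Syce3 between -0.024 and 0.18 and Mga between -0.10 and 0.096. The cause was not tested. With 2 libraries a group and unknown depth, genes near 1 TPM are the least precise.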

Other observations

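By gene type, 271 members recorded as TEC (transcripts to be experimentally checked) had a median log2 fold change of 0.35 in ST, with 94 higher and 32 lower, against a median of 0.01 for 13013 protein-coding genes. Processed pseudogenes had a median of -0.16 over 1050 members, with 108 higher and 183 lower. Of the members, 405 were listed at 0 in both ST libraries and 182 in both LT libraries. Of the 3254 protein-coding members with the shortest exon lengths 50.1% were called, and of the 3253 with the longest 38.3%.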
